A study of Mus musculus with 6 samples.

Results

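The proteasome subunit genes of mouse pancreatic islets were examined with and without Sec16b. Members were taken by symbol from the deposited table of normalized counts: Psma, Psmb, Psmc or Psmd followed by a digit. The immunoproteasome genes Psmb8, Psmb9 and Psmb10, the unrelated Psmc3ip and pseudogenes were left out by the same rule. This gave 34 genes of 18437 in the table, and all 34 passed the filter on low values with values from 192 to 6080. They include 3 chaperones of the base, Psmd5, Psmd9 and Psmd10, which are counted with the subunits below. The germ-cell and thymic subunits Psma8 and Psmb11 were not analysed here. All 6 libraries came from islets of male mice aged 30 weeks, 3 from Sec16b+/+ mice (wild type) and 3 from Sec16b-/- mice (knockout). The labels give no strain, no allele design and no batch, and they do not say whether each library is a separate animal, so p-values measure only the spread between these samples.

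The proteasome is the barrel-shaped protease that degrades most ubiquitin-tagged proteins of the cytosol and nucleus, including misfolded secretory proteins that are drawn back out of the endoplasmic reticulum. Its core particle is built of outer rings of alpha subunits and inner rings of beta subunits, and Psmb5, Psmb6 and Psmb7 carry the active sites. A regulatory particle caps the core: its base holds an ATPase ring (Psmc genes) that unfolds the substrate, and its lid removes the ubiquitin chain. Beta cells make very large amounts of proinsulin, and proinsulin that fails to fold is among the substrates of this route.

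A normalized count is a gene's read count divided by a size factor of its library, and a log2 fold change here is the mean log2(value + 1) of the knockout libraries minus that of the wild type libraries. Values of single libraries are listed in the order of replicates 1, 2 and 3, wild type before knockout. Sec16b, which encodes a protein of the sites where cargo leaves the endoplasmic reticulum, had normalized counts of 1655, 773 and 1786 in the wild type libraries against 553, 433 and 750 in the knockout libraries. The log2 fold change was −1.22 (SE 0.35), and transcript was left in every knockout library. The reads of the genes in the table, recovered from the normalized counts, summed to between 22071895 and 26806787 per library. Reads outside these genes are not counted. The 11 beta cell markers listed were all in the table, and Ins1 with Ins2 took 8.27% to 13.3% of the reads in the table. Exocrine RNA was also present: 36 of 37 acinar markers were in the table. Their summed level was 292549 to 1354270 in wild type and 177674 to 4924430 in knockout libraries. None was at 0, but no gene in the table was. The share of the acinar markers in the reads of the table was 5.99%, 1.30% and 3.67% against 18.2%, 8.68% and 0.808%. The islets are bulk samples, so fewer cells of a type and less RNA per cell cannot be told apart.

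The sequences just upstream of the start sites were read from RefSeq (mouse build GRCm38.p6), which served only for sequence, since the build behind the table is not given in the sources used here. Of the 34 genes, 28 had an entry, with 30 start sites in all. Psmb1, Psmb2, Psmb7, Psmc3, Psmd3 and Psmd7 had none. In the 250 bases before each start, 8 motifs were searched on both strands, a choice made with the expression values known. The motif that ETS-family transcription factors bind, CCGGAAG, lay in 10 of the 30 windows (33.3%), against 12.0% of 14977 windows of tested genes and 6.91% of all 32851 windows. For 7 members all knockout values lay below all wild type values (described further on), a list that changed in part with the scaling. Of these 7, 6 had an entry, and 4 of the 6 held the motif, against 5 of the 22 other members. The 4 are the ATPases Psmc1 and Psmc2, the base scaffold Psmd2 and the lid subunit Psmd11. The 5 other members with the motif are Psma6, Psmc6, Psmd4, Psmd6 and Psmd12, with log2 fold changes of −0.03, −0.09, −0.11, −0.03 and −0.07. In Psmd12 and Psmd6 it lay 17 and 45 bases before the start. The last 100 bases before the start are shown only for the 4 separated genes, a choice that rests on their expression values. Other members, Psmd12 and Psmd6 among them, also hold the match within 100 bases and are not shown. A link between the motif and the fold changes was not tested. The windows are Psmc1 at chr12:100110102-100110201, Psmc2 start 1 at chr5:21785175-21785274 and start 2 at chr5:21786647-21786746, Psmd2 at chr16:20651552-20651651 and Psmd11 at chr11:80428515-80428614. All 5 are on the plus strand, 5′ to 3′, with the match in capitals (CTTCCGG, the motif read on the other strand).
Psmc1: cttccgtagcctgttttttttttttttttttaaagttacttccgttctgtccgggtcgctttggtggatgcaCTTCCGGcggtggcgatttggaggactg
Psmc2 start 1: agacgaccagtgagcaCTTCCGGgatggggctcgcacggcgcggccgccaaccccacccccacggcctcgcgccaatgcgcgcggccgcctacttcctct
Psmc2 start 2: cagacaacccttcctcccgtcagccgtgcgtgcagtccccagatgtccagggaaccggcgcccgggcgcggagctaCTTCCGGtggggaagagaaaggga
Psmd2: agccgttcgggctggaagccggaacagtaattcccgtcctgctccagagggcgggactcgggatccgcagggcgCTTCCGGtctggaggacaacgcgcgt
Psmd11: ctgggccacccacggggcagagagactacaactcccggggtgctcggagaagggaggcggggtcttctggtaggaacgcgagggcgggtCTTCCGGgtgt
In each the match starts within 100 bases of the start site: 28 bases before it in Psmc1, 84 and 24 in the starts of Psmc2, 26 in Psmd2 and 11 in Psmd11.

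The antioxidant response element core (TGACNNNGC or TGAGNNNGC), the kind of site through which Nfe2l1 is known to raise proteasome genes when the proteasome is inhibited, lay in 12 of 30 windows (40.0%), against 25.7% of windows of tested genes. Psmb5 at chr14:54617996-54618095 (minus strand) and Psmb6 at chr11:70525257-70525356 (plus strand), which encode active-site subunits, held it close to the start. Psmd1 at chr1:86064369-86064618 (plus strand), the member with the smallest p, held it 224 bases before the start and held no ETS match. Its whole 250-base window is shown so that it can be read against those above, with the core in capitals.
Psmb5: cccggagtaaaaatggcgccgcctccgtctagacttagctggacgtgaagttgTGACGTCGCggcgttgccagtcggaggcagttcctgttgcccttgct
Psmb6: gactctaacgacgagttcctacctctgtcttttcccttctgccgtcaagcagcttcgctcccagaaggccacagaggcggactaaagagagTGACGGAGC
Psmd1: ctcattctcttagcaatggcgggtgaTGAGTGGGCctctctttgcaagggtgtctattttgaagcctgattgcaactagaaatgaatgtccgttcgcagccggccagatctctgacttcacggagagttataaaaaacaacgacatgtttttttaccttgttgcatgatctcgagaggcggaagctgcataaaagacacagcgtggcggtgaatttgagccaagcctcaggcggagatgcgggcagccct
The core begins 47 bases before the start in Psmb5 and 9 bases before it in Psmb6. CCAAT lay in 36.7% of member windows against 34.6%, GGGCGG in 56.7% against 54.9%, TATAAA in 3 of 30 windows against 6.94%, CACGTG in 6.67% against 7.87% and CGCATGCG in 3.33% against 2.74%. TGACGTCA lay in 0 of 30 windows against 2.46%. Motifs were counted separately, and a GGGCGG match can overlap one of TGAGNNNGC. Split as for the ETS motif, the antioxidant core was held by 3 of the 6 separated genes with an entry and 8 of the 22 others, CCAAT by 2 and 9, GGGCGG by 3 and 14, TATAAA by 1 and 2, CACGTG by 0 and 2, CGCATGCG by 0 and 1, and TGACGTCA by 0 and 0. None of these splits was tested. A match describes these letters only, and factor binding was not measured.

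Proteasome subunit transcripts had slightly lower values in knockout than in wild type islets across nearly the whole family, but no single gene passed the test. The mean log2 value was lower in knockout for 32 of 34 members, against 50.6% of all 16042 genes tested, and higher for Psma7 (0.08) and Psmd10 (0.04). Neither direction was stable: without wild type replicate 3 Psma7 was at −0.0321 and Psmd10 at −0.10, with the interferon level as a covariate they were at −0.00321 and −0.00793, and with CPM scaling Psmd10 was at −0.0314. With CPM scaling (values relative to the library's total reads in the table) in place of the deposited scaling, 33 of 34 members were lower, against 62.6% of all genes. The median log2 fold change of the members was −0.12, beside −0.0030 over all genes, and single members ran from −0.29 to 0.08. For 7 members, Psmc1, Psmc2, Psmd1, Psmd2, Psmd5, Psmd7 and Psmd11, every knockout value lay below every wild type value, against 5.22% of all genes. Which members these were changed with the scaling. With CPM scaling Psma4 and Psmc3 were separated, and Psmc2 and Psmd5 were not (all genes 4.89%). With TMM scaling, that of edgeR, Psmd5 was not separated (all genes 5.06%). For 0 members every knockout value lay above, against 3.85%.

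None of the 34 members passed limma's test at an adjusted p under 0.05 (adjusted p = 0.993 or higher), and neither did any other gene, so the share called over all genes was 0%. At an unadjusted p under 0.05 limma found 494 genes, and 1 member, Psmd1, was among the 218 lower ones, against a background of 1.36%. Run on whole reads, edgeR called 0% of genes too, with 509 at an unadjusted p under 0.05 with Psmd1 the 1 member among them. DESeq2 called 12 genes (0.114% of those with an adjusted p) and 0 members, whose lowest adjusted p was 0.773. The SE of a member's log2 fold change ran from 0.08 to 0.20 with a median of 0.11, where the median over all genes was 0.20. All genes include values down to 0.879, while the members lay at 192 to 6080, so these medians are not matched for level.

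**Figure D1:**
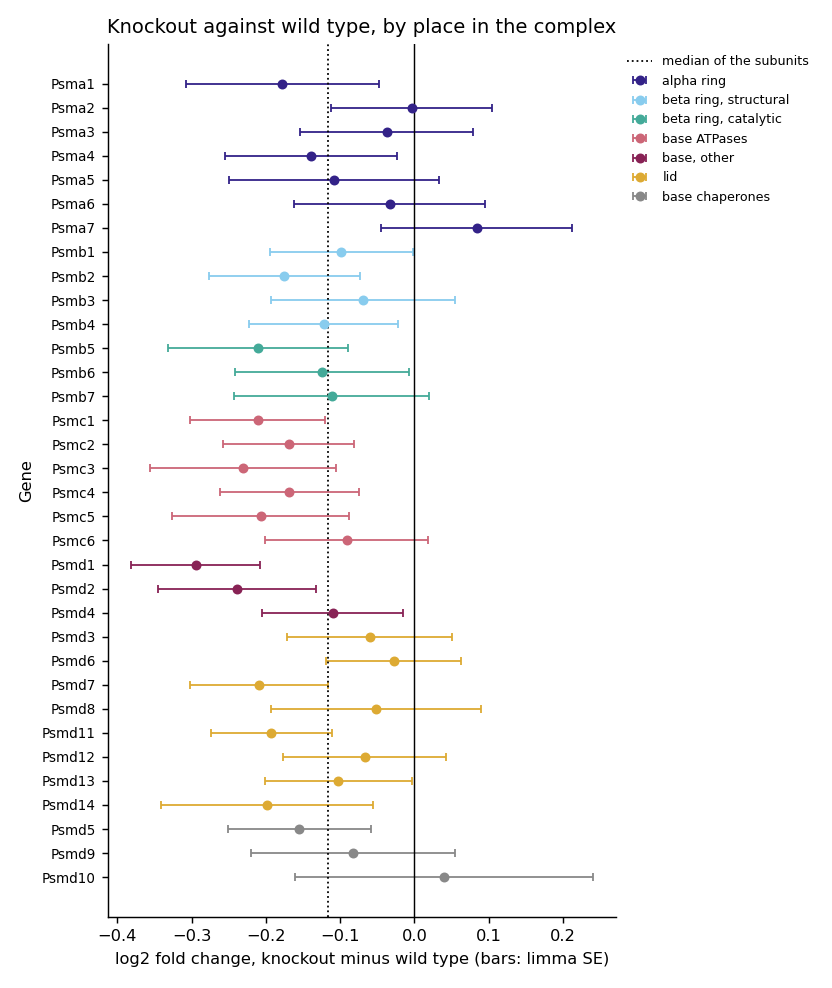
Log2 fold change (knockout minus wild type, on the log2(value + 1) scale) of each proteasome subunit gene, grouped by place in the complex, with bars of the standard error. Of the 34 points, 32 lie left of 0, and the base subunits reach farthest, to −0.29 for Psmd1.

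The difference between genotypes did not run evenly through the libraries. Each gene's log2 values were set against that gene's mean over the 6 libraries. In wild type replicates 1 and 2, 30 and 33 of 34 members lay above their own mean, but in wild type replicate 3 only 6 did. In knockout replicate 1, 24 lay above, and in knockout replicates 2 and 3 only 2 and 1. The median deviations were 0.15, 0.13 and −0.08 against 0.04, −0.14 and −0.07. Thus wild type replicate 3 stood with the lower knockout libraries and knockout replicate 1 with the higher side. Wild type replicate 3 was the lowest wild type library for 29 of 34 members, and knockout replicate 1 the highest knockout library for 28.

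Single pairs of libraries show the same unevenness. Knockout replicate 3 was below wild type replicate 2 for 34 of 34 members, the most of any pair, with a median log2 ratio of −0.21. Knockout replicate 1 was below wild type replicate 3 for 11 of 34, with a median of 0.12. Knockout replicate 3 against wild type replicate 3 gave 16 of 34 and a median of 0.01. Without wild type replicate 3, 22 members were separated between the groups in place of 7 (all genes 9.64%), and without knockout replicate 1, 11 were (all genes 8.83%). Without wild type replicate 2, 24 members in place of 32 had a lower mean. With the acinar level as a covariate 33 members were lower, with a median of −0.12. The part of the exocrine RNA in the uneven pattern was not tested.

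**Figure D2:**
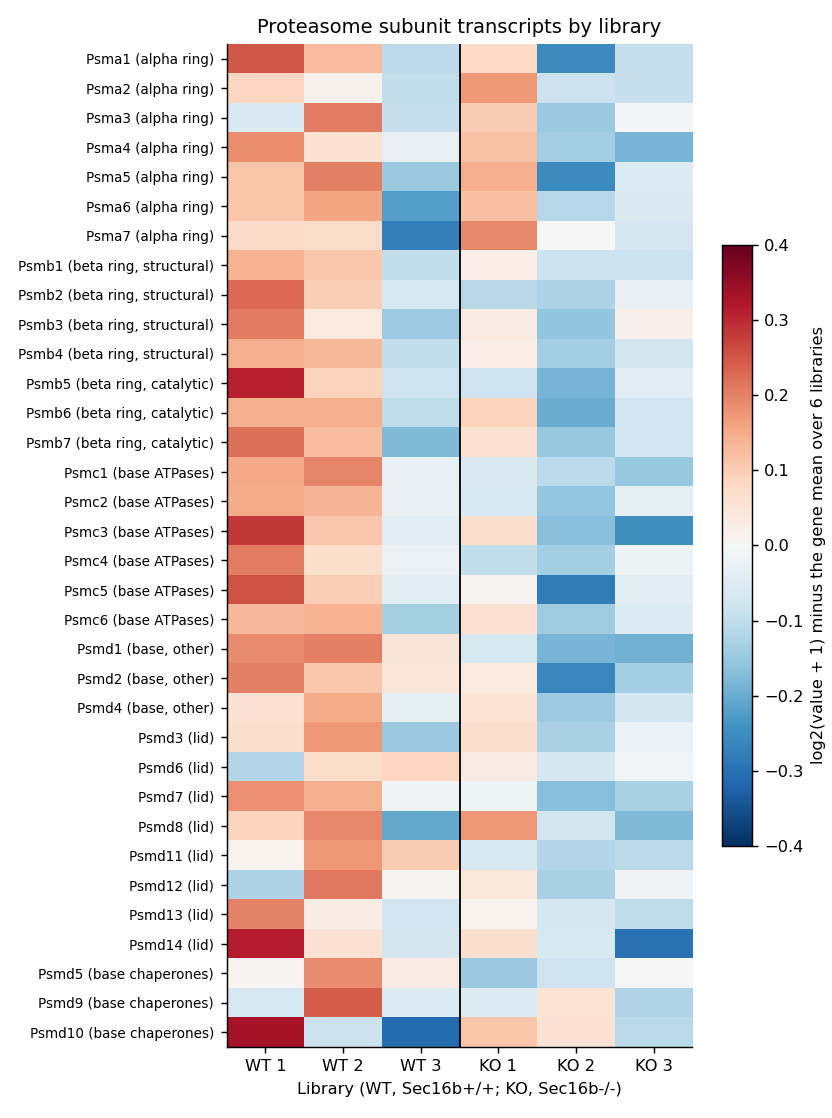
Deviation of each proteasome subunit's log2 value from its own mean over the 6 libraries, by library. Wild type replicates 1 and 2 lie mostly above 0 (30 and 33 of 34 genes), wild type replicate 3 and knockout replicates 2 and 3 mostly below, and knockout replicate 1 in between with 24 of 34 above.

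As a share of all reads in the table, the 34 genes together took 0.277%, 0.279% and 0.233% against 0.216%, 0.222% and 0.244%. The groups overlap, since knockout replicate 3 lies above wild type replicate 3. Exact 95% Clopper-Pearson intervals were narrow, for example 0.231% to 0.235% in wild type replicate 3, and cover counting error only. The mean share was 0.263% ± 0.0259 (SD, n = 3) in wild type against 0.227% ± 0.0150 (SD, n = 3) in knockout, a ratio of 0.865. With acinar reads left out of the total the shares were 0.295%, 0.282% and 0.242% against 0.264%, 0.243% and 0.246%, and the ratio was 0.919.

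The base of the regulatory particle had the lowest group medians among the subunits. Its 3 members that are not ATPases were all lower, with a median log2 fold change of −0.24. Psmd1, a large scaffold of the base, was at 3028, 3056 and 2753 against 2541, 2336 and 2325. All 3 knockout values lay below all 3 wild type values, with a gap from 2541 to 2753. The mean of 2401 ± 122 (SD, n = 3) in knockout against 2946 ± 168 (SD, n = 3) in wild type gave a log2 fold change of −0.29 (SE 0.09), or 1.23-fold lower, with an unadjusted limma p of 0.0118 (adjusted p = 0.993). Psmd2, the other scaffold and a docking site for ubiquitin shuttles, was at 6080, 5696 and 5472 against 5432, 4407 and 4811. Knockout replicate 1 lay just under wild type replicate 3, and the fold change was −0.24 on the log2 scale (SE 0.11, limma adjusted p = 0.993). Psmd4, a ubiquitin receptor of the base, differed by −0.11 in log2 (SE 0.10), and its groups overlapped.

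The ATPase ring was lower in all 6 of its members, with a median of −0.19 and single values from −0.23 (Psmc3) to −0.09 (Psmc6). Psmc1 was at 2526, 2605 and 2231 against 2185, 2111 and 2050, which is −0.21 in log2 (SE 0.09, limma adjusted p = 0.993). Psmc2 was at 2560, 2542 and 2261 against 2215, 2077 and 2250, which is −0.17 in log2 (SE 0.09, limma adjusted p = 0.993). In both genes wild type replicate 3 was the lowest wild type library and lay close to the highest knockout library. The other 4 ATPase genes overlapped between the groups.

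All 8 lid genes among the members had a lower mean in knockout, with a median of −0.08. Sem1, a lid subunit that the symbol rule does not reach, was higher, at 582, 704 and 544 against 685, 652 and 594. Its log2 fold change was 0.08 (SE 0.13), with overlapping groups. Psmd11, a lid subunit that braces the regulatory particle on the core, was at 1903, 2124 and 2024 against 1801, 1740 and 1749. The knockout values were tight, 1763 ± 33.2 (SD, n = 3) against 2017 ± 111 (SD, n = 3), and the log2 fold change was −0.19 (SE 0.08, unadjusted p = 0.0502, adjusted p = 0.993 by limma). Psmd7, the inactive partner of the deubiquitinase Psmd14, was at 2451, 2388 and 2135 against 2134, 1918 and 1974, a log2 fold change of −0.21 (SE 0.09). Its lowest wild type and highest knockout values, 2135 and 2134, all but touch. Psmd14 itself, which cuts the ubiquitin chain from the substrate, was at 1217, 1018 and 929 against 1022, 937 and 794, with overlapping groups and a log2 fold change of −0.20 (SE 0.14). It is named after its values were seen, as the partner of Psmd7. Of the 8 lid members the smallest difference was −0.03, for Psmd6.

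**Figure D3:**
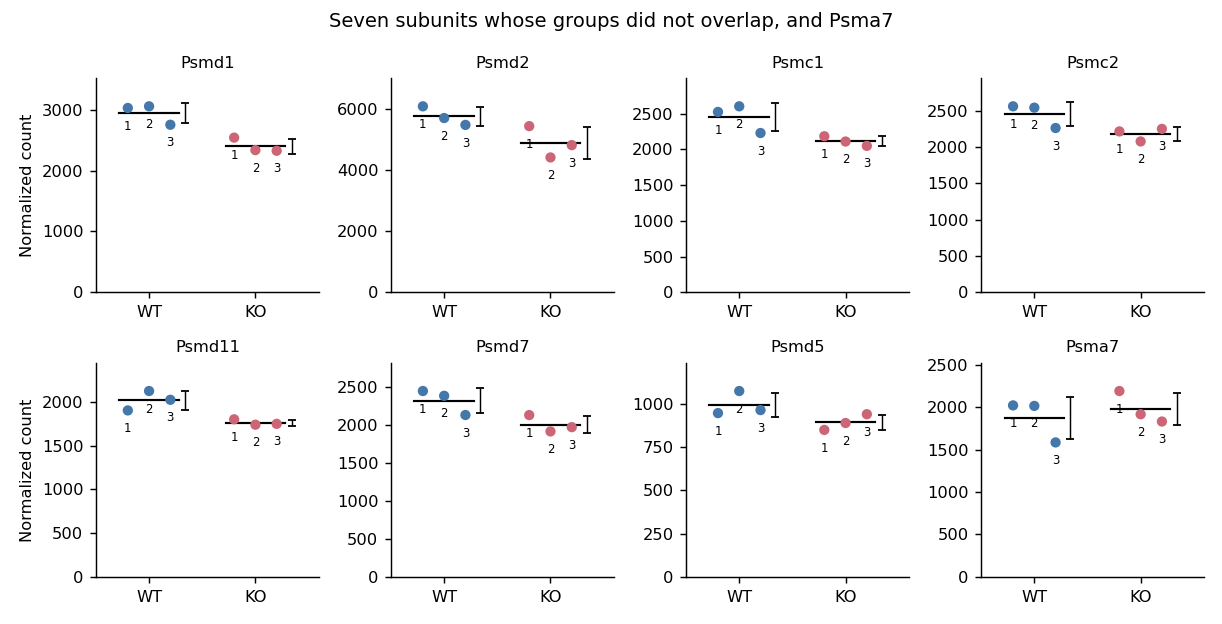
Normalized counts of the 7 members (the base chaperone Psmd5 among them) whose knockout values all lay below their wild type values, and of Psma7, the member with the highest log2 fold change. Points are libraries numbered by replicate, lines are group means, bars are the SD (n = 3), and each axis starts at 0; Psma7 shows overlapping groups.

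In the core particle 13 of 14 genes were lower, with a median of −0.11, beside 17 of 17 and −0.17 in the base and lid members together. Sem1 (0.08) and the ubiquitin receptor Adrm1 (−0.15) are not among the 17. The groups were separated, with all knockout values lower, for 0 of the 14 core genes and for 6 of the 17 others. Over all genes the share was 5.22%, so 0 of 14 is near the background. With CPM scaling the core gene Psma4 was separated too (all genes 4.89%). The difference between the particles was not tested. The alpha ring, which gates entry to the core, had a median of −0.04 with 6 of 7 lower. Its smallest p was that of Psma1, at 1896, 1738 and 1485 against 1686, 1339 and 1498 (log2 fold change −0.18, SE 0.13). Psma4 followed at 1270, 1161 and 1091 against 1210, 1014 and 982 (−0.14, SE 0.12). Psma7 was the member with the highest log2 fold change, at 2022, 2016 and 1585 against 2191, 1918 and 1832 (0.08, SE 0.13). Wild type replicate 3 was the lowest library for Psma7. Psma2 had a mean of 1462 in both groups (log2 fold change −0.0035, SE 0.11). The table also holds a pseudogene of Psma5 that was left out by the rule and could share reads with it.

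Among the 4 structural beta subunits, which have no active site, all were lower with a median of −0.11. Psmb2 was at 1360, 1245 and 1116 against 1079, 1067 and 1141 (log2 fold change −0.17, SE 0.10), and only knockout replicate 3 overlapped the wild type range. Psmb4 was at 2722, 2697 and 2298 against 2504, 2235 and 2338 (−0.12, SE 0.10), with overlapping groups.

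The active-site subunits were lower by similar amounts. Psmb5, the chymotrypsin-like subunit, was at 1296, 1110 and 985 against 985, 917 and 1011 (log2 fold change −0.21, SE 0.12). Psmb6, the caspase-like subunit, was at 1268, 1271 and 1070 against 1221, 1000 and 1090 (−0.12, SE 0.12). Psmb7, the trypsin-like subunit, was at 980, 917 and 745 against 879, 758 and 797 (−0.11, SE 0.13). In all 3 the groups overlapped, and wild type replicate 3 was the lowest wild type library.

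Their counterparts in the immunoproteasome, which interferon induces and which replace them in immune cells and inflamed tissue, varied far more between libraries. Psmb8 was at 884, 726 and 349 against 1166, 597 and 464 (log2 fold change 0.18, SE 0.44). Psmb9 was at 466, 391 and 229 against 763, 334 and 272 (0.24, SE 0.43), and Psmb10 at 906, 1008 and 667 against 1342, 688 and 693 (0.02, SE 0.29, but −0.0486 with CPM scaling). Knockout replicate 1 was the highest and wild type replicate 3 the lowest library for each of the 3, and the direction rested on them: without knockout replicate 1 Psmb8, Psmb9 and Psmb10 were at −0.21, −0.20 and −0.30 in log2, and without wild type replicate 3 at −0.22, −0.0546 and −0.15. With the interferon level as a covariate they were at −0.16, −0.0879 and −0.22. The summed Psmb8, Psmb9 and Psmb10 came to 0.637, 0.644 and 0.445 of the summed Psmb5, Psmb6 and Psmb7 in wild type replicates 1, 2 and 3, and to 1.06, 0.605 and 0.493 in knockout replicates 1, 2 and 3. The ratio was 0.575 ± 0.113 (SD, n = 3) against 0.720 ± 0.301 (SD, n = 3), a difference smaller than the knockout spread.

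The interferon genes moved with that ratio in part, and the markers of immune cells did not follow it throughout. The mean log2 level of the 17 interferon genes, all in the table, was 9.76, 10.8 and 9.09 against 11.3, 10.03 and 9.79, and their summed level was 14310 to 46609 and 21989 to 61259. Of 11 lymphocyte markers 7 were in the table, summing to 318 to 22017 in wild type and 7188 to 143981 in knockout libraries, and Cd3d, Cd3e, Ms4a1 and Cd2 were not analysed here. All 12 macrophage markers were in the table, summing to 8464 to 32879 and 8530 to 28717. No marker in the table was at 0, but no other gene in it was either. Knockout replicate 1 was highest in the interferon level and in summed lymphocyte markers, wild type replicate 3 lowest in the interferon level. The mean log2 level of the lymphocyte markers was 10.3, 4.36 and 4.90 against 10.1, 8.86 and 7.56, highest in wild type replicate 1. That library also had the highest macrophage sum, 32879. Wild type replicate 2 had the lowest lymphocyte level and the lowest lymphocyte and macrophage sums, but the highest wild type ratio, 0.644. The part of these cells in the immunoproteasome values was not tested. With the interferon level as a covariate, 34 of 34 members were lower with a median of −0.17, and 0 passed the adjusted test.

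**Figure D4:**
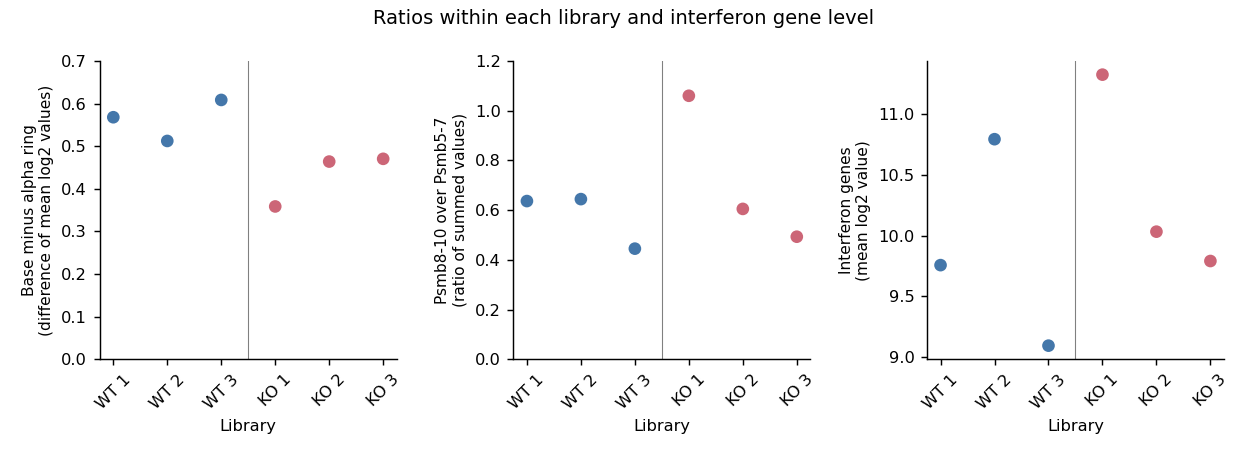
Left, the mean log2 value of the base subunits minus that of the alpha ring, for each library. Middle, the ratio of summed immunoproteasome genes (Psmb8, Psmb9, Psmb10) to summed constitutive active-site genes (Psmb5, Psmb6, Psmb7). Right, the mean log2 level of the interferon genes. On the left all 3 knockout libraries (0.36 to 0.47) lie below the 3 wild type libraries (0.51 to 0.61). The middle ratio is highest in knockout replicate 1 at 1.06 and overlaps between the groups.

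A difference between parts of the complex within one library does not depend on the scaling of libraries. The mean log2 value of the 9 base subunits minus that of the alpha ring was 0.57, 0.51 and 0.61 against 0.36, 0.46 and 0.47. The groups did not overlap, at 0.56 ± 0.05 (SD, n = 3) and 0.43 ± 0.06 (SD, n = 3), a difference of −0.13, and leaving out each library in turn gave −0.16 to −0.10. This contrast was chosen after the values of both groups were seen and was not tested. The same for all regulatory particle members minus all core members gave 0.52, 0.57 and 0.64 against 0.49, 0.55 and 0.51, and there the groups overlapped.

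The dedicated chaperones that build the base, Psmd5, Psmd9 and Psmd10, are not subunits of the finished particle. Psmd5 was at 946, 1074 and 964 against 849, 889 and 940 (log2 fold change −0.15, SE 0.10), with knockout replicate 3 just under the lowest wild type value. Psmd9 was at 366, 453 and 368 against 368, 397 and 352 (−0.08, SE 0.14). Psmd10, also called gankyrin, was at 300, 224 and 192 against 256, 247 and 220 (0.04, SE 0.20), the noisiest member.

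Levels of different genes can be compared only per length. Divided by the coding length in kilobases (GENCODE M21), the mean normalized count ran from 346 for Psmd10 to 3113 for Psmb4, 9.0-fold, with a median of 1563. Group medians per coding kilobase were 2037 for the alpha ring, 2262 for the structural beta subunits, 1327 for the active-site subunits, 1359 for the ATPases, 1460 for the other base subunits, 1563 for the lid and 577 for the base chaperones. The 3 chaperones were the 3 lowest of the 34 genes, as they were when the whole exon length was used. Per exon kilobase the range widened to 14.1-fold, from 148 for Psmd9 to 2084 for Psmb4, and the order changed with the length taken: Psmb1 ranked 3 of 34 per coding kilobase and 29 per exon kilobase.

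**Figure D5:**
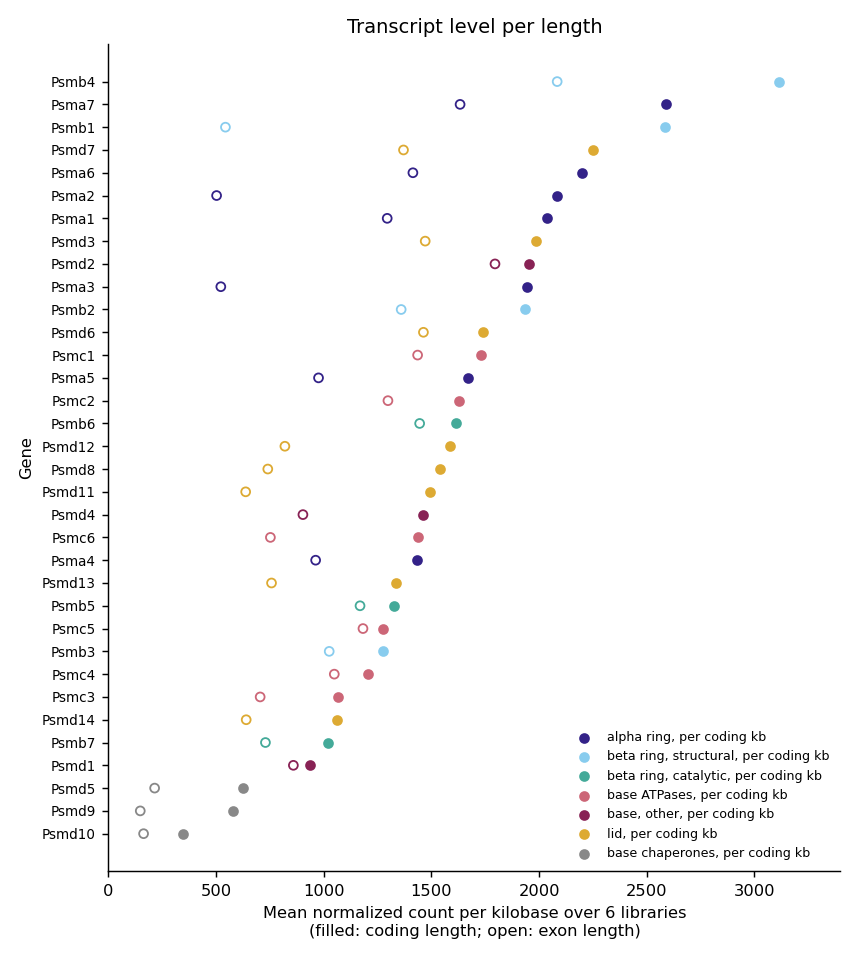
Mean normalized count per coding kilobase of each proteasome subunit gene over the 6 libraries, by place in the complex. Psmb4 is highest at 3113, and the base chaperones Psmd5, Psmd9 and Psmd10 are the lowest 3.

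Across the 6 libraries the members varied little. The coefficient of variation of a member had a median of 9.82%, from 5.53% (Psmd6) to 15.5% (Psmd10), and the highest library was 1.28-fold above the lowest at the median. The 8899 tested genes with a mean in the range of the members had a median coefficient of variation of 11.5%. For the 3 immunoproteasome genes it was 29.8% to 47.1%.

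The genes that assemble, activate, feed or regulate the proteasome showed a mixed picture. Of 46 such genes tested, the 3 immunoproteasome genes included, 29 had a lower and 17 a higher mean in knockout, 0 passed limma's adjusted test, and 9 were separated with all knockout values lower (5.22% of all genes) and 1 with all higher (3.85% of all genes). Among 8 proteasome-bound proteins, with Sem1 counted here, 6 were lower. Ube3c, a ubiquitin ligase on the proteasome, was at 3185, 3425 and 3217 against 2463, 2579 and 2870 (log2 fold change −0.31, SE 0.09, unadjusted p = 0.0109, adjusted p = 0.993 by limma). The highest knockout value, 2870, lay below the lowest wild type value, 3185. Adrm1, a ubiquitin receptor, was at 2049, 1943 and 1900 against 1680, 1787 and 1847 (−0.15, SE 0.08).

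Of 11 shuttle factors and partners of Vcp, 10 were lower with a median of −0.06. Vcp, the ATPase that pulls ubiquitinated proteins from the endoplasmic reticulum membrane, was at 7645, 7847 and 7817 against 7179, 6577 and 6135 (log2 fold change −0.23, SE 0.10, unadjusted p = 0.0457, adjusted p = 0.993 by limma). Its cofactor Nploc4 was at 3379, 3374 and 3778 against 2886, 2988 and 3336 (−0.19, SE 0.10). In both genes every knockout library lay below every wild type library. Neither passed the adjusted test.

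Among 7 activator and inhibitor genes 6 were lower. Psme4, an activator that caps the core in place of the regulatory particle, was at 6084, 6083 and 7248 against 5499, 5429 and 6083 (−0.19, SE 0.11), so that its lowest wild type and highest knockout values nearly met. Psmf1, a core-binding regulator, was at 1378, 1446 and 1429 against 1385, 1235 and 1486 (−0.05, SE 0.10). Psme2b is a near copy of Psme2, so reads could be split between them. Of 6 genes listed as assembly factors (Psmg1, Psmg2, Psmg3, Psmg4, Pomp and Akirin2) 3 were lower. Psmg3 was the gene with higher knockout values throughout, 86.2, 93.9 and 87.0 against 110, 101 and 106 (0.25, SE 0.19). Psmg1 differed by −0.12 in log2 (SE 0.19).

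The ubiquitin genes and the regulators of proteasome transcription were not mostly lower. Of 6 ubiquitin and E1 genes 4 were higher, with a median of 0.23. Rps27a, a fusion of ubiquitin and a ribosomal protein, had 1256, 2862 and 1234 against 1826, 3620 and 3523 (0.80, SE 0.40). Its groups overlap, and genes that encode ubiquitin share near-identical sequence, so its count is uncertain. Nfe2l1, the transcription factor that drives proteasome genes when proteasome capacity falls short, was at 11967, 14169 and 12729 against 11238, 10761 and 11887 (−0.20, SE 0.11), separated by a narrow gap. Ngly1, which removes sugars from Nfe2l1 and is needed for its activity, was at 935, 1005 and 1107 against 1341, 1056 and 1058 (0.18, SE 0.13). All adjusted p-values of these genes by limma were 0.993.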

How the data were processed

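The authors sequenced islet RNA in 6 libraries, 3 of each genotype. The submitters' processing notes name HISAT2 as a tool. Not given in the sources used here are its version, how reads were counted, the genome build, the annotation and the strand setting. Groups and replicate numbers came from the labels. The deposited signal values are read counts that the authors divided by 1 size factor per library, as the values show: 100% of values were whole reads within 0.01 reads once the factor was recovered, and for 2 libraries, where a step is close to 1, this was read from the values alone. No value was 0. Because the unit is a scaled signal and not a raw count, limma was the main test.

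Genes with a value of 10 or more in 3 or more libraries were tested, 16042 genes, and 2395 were not. Limma 3.58.1 (R 4.3.3) compared log2(value + 1) with a mean-variance trend, two-sided, with Benjamini-Hochberg adjustment over all genes at 0.05. Fold changes on this scale understate those of low genes. EdgeR 4.0.16 (quasi-likelihood) and DESeq2 1.42.0 ran on the recovered reads as alternatives. The fit was tested on simulated data, in which the changes put in were larger than the difference of any member. How well it finds differences as small as those of the members was not tested. Replicate libraries differed by 49.9 to 284 chi-square per degree of freedom, so none was counted as a duplicate.

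The members and gene lists were chosen with earlier results of these data known, so a list's direction is no independent support. Genes were named by a rule: the active-site and immunoproteasome genes, the 2 smallest limma p in each group of subunits and each related list, every member with an unadjusted p under 0.05, the ends of the ranges of fold change and level per coding length, and Sec16b. Psmc3, Psmc6, Psmd4, Psmd6, Psmd14, Psma2, Psmb1 and Sem1 were added after their values were seen. A gene that the rule names is not reported here. Replicate numbers were checked for pairing by the correlation of their deviations. Alternatives covered pseudocount, filter, scaling, variance model, weights, tool, covariates, replicate block and each library left out. Lengths came from GENCODE M21 and promoters from RefSeq GRCm38.p6.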

Additional observations from a re-analysis of the deposited data

How the results depend on the processing

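Across 20 alternatives, 0 members were called, and 0 genes were, except that DESeq2 called 12. The median of the members stayed between −0.19 and −0.08 and members with a lower mean between 24 and 34. The count of members with every knockout value below every wild type value was 6 to 7 under 3 scalings (4.89% to 5.24% of all genes) and 7 to 22 when a library was left out (8.37% to 14.4% of all genes), with 22 (9.64%) when wild type replicate 3 and 11 (8.83%) when knockout replicate 1 was dropped (chosen after seeing the data). With the replicate block 0 genes and 0 members were called, the median was −0.12, 4 members had an unadjusted p under 0.05, and the lowest adjusted p was 0.837; same-numbered libraries correlated at 0.43, 0.00366 and 0.365, and not every library correlated best with its own number, so the numbers were not taken to pair samples. Some signs changed, also those of Psmb8 and Psmb9, and the cause was not tested. By edgeR Psma2 was 0.00401. With the interferon covariate Psma7 was −0.00321, Psmb10 −0.22, Psmb8 −0.16, Psmb9 −0.0879 and Psmd10 −0.00793. With the acinar covariate Psmb10 was −0.0629 and Psmd10 −0.00868. By CPM Psmb10 was −0.0486 and Psmd10 −0.0314. With array weights Psmb10 was −0.12. Leaving out each library in turn gave −0.0918 to 0.0422 for Psma2, −0.0970 to 0.0556 for Psma3, −0.15 to 0.0379 for Psma6, −0.0321 to 0.14 for Psma7, −0.30 to 0.19 for Psmb10, −0.16 to 0.0178 for Psmb3, −0.22 to 0.46 for Psmb8, −0.20 to 0.54 for Psmb9, −0.10 to 0.22 for Psmd10, −0.14 to 0.0219 for Psmd12, −0.15 to 0.0122 for Psmd3, −0.0933 to 0.00840 for Psmd6, −0.17 to 0.0314 for Psmd8, −0.14 to 0.0185 for Psmd9, −0.12 to 0.0177 for Psmf1 and −0.30 to 0.00225 for Psmg1. Over all genes, replicate libraries differed by far more than counting error (chi-square per degree of freedom 49.9 to 284), so the number of libraries limits the precision more than depth does.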
